A study of Mus musculus with 4 samples.

Results

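The genes described here are globins and regulators of red cell formation, measured by microarray in blood progenitors sorted from the livers of mouse embryos. They were taken as every probe set of the array whose annotation names exactly 1 of Hbb-y, Hbb-bh1, Hba-x, Hba-a1, Alas2, Slc4a1, Klf1, Gata1, Epor and Car1. This gave 16 probe sets of 10 genes, out of 34945 probe sets with 1 gene symbol and 45037 probe sets in all. Hbb-y, Hbb-bh1 and Slc4a1 had 3 probe sets each, and the other 7 genes had 1 each. The sorted cells lacked lineage markers and carried cKit and Sca1 (LSK cells), the gate of stem cells and multipotent progenitors of the blood. All 4 samples were labelled female, had the genotype Hes1 GFP/WT and were taken at E13.5, and GFP from the Hes1 locus split the cells, with 3 arrays for HES1-GFP negative cells and 1 array for HES1-GFP positive cells. The labels do not say how many embryos or sorts went into a sample, so the spread of the 3 negative arrays may be partly technical, and the sources used here do not name the antibodies of the lineage stain.

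Haemoglobin joins a pair of alpha-like and a pair of beta-like globin chains around haem. In the mouse the first, primitive red cells of the yolk sac use the embryonic chains, Hba-x on the alpha side and Hbb-y and Hbb-bh1 on the beta side, while the definitive red cells made in the foetal liver use mostly adult alpha and beta chains. Erythropoietin, received by Epor, keeps erythroid progenitors alive, and the transcription factors Gata1 and Klf1 switch on globin, haem and membrane genes as these cells mature. A multipotent LSK cell stands upstream of this programme, and late products such as band 3 or haemoglobin are not what it is known for.

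RefSeq promoters (build GRCm38.p6) were at hand for 7 of the 10 genes: Hbb-y, Hba-x, Hba-a1, Alas2, Klf1, Gata1 and Epor. Of these, 5 are shown over the 150 bases before the annotated start. Hbb-y and Hba-x are embryonic globins in which the arrays stood in different orders, and Hba-a1 is an adult alpha gene that lies next to Hba-x. Alas2 and Klf1 are single-copy genes in which, as in Hbb-y, negative replicates 1 and 2 were lowest. Capitals mark matches, on either strand, to AGATAA or TGATAA (bound by Gata1), to CACCC, CCACACCC or CCNCNCCC (forms of the CACCC box bound by Klf1), to TATAAA and to CCAAT. CCACACCC is 1 form of CCNCNCCC, and CACCC can lie inside both. The windows are chr7:103853208-103853357 (minus strand), chr11:32276450-32276599 (plus strand), chr11:32283522-32283671 (plus strand), chrX:150547267-150547416 (plus strand) and chr8:84901832-84901981 (plus strand).
Hbb-y: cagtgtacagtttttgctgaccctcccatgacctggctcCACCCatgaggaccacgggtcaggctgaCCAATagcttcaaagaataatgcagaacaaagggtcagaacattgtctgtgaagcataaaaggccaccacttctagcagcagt
Hba-x: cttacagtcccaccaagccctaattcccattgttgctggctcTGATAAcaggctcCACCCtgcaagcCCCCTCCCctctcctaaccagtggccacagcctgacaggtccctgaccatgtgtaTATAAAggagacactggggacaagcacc
Hba-a1: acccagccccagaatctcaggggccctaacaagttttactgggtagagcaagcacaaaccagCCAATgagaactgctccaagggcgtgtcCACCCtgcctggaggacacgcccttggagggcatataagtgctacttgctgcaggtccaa
Alas2: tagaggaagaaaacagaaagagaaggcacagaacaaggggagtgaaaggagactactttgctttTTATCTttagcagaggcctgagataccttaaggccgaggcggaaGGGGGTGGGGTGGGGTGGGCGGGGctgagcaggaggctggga
Klf1: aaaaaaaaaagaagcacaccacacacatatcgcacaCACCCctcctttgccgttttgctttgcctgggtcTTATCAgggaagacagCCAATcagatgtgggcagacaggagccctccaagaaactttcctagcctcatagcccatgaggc

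In these windows the embryonic beta-like gene Hbb-y held CACCC at -111 to -107 and CCAAT at -83 to -79, counted back from the start site, and no match to a GATA sequence. Hba-x held TGATAA at -108 to -103, CACCC at -95 to -91, CCCCTCCC at -83 to -76 and TATAAA at -28 to -23. Alas2 held AGATAA on the opposite strand at -86 to -81 and a run of overlapping CACCC-type matches between -42 and -19, and Klf1 held TGATAA on the opposite strand at -80 to -75 with CCAAT at -64 to -60. A GATA sequence was found in 4 of the 7 promoters (Hba-x, Alas2, Klf1 and Epor) and in 9.91% of 27025 promoters of the same length. CACCC, which was added to the search after the sequences had been seen, was found in 7 of 7 and in 36.9% of all. CCNCNCCC was found in 4 of 7 against 37.9%, CCAAT in 3 of 7 against 25.3%, TATAAA in 1 of 7 against 8.08%, the E-box CANNTG, left in lower case, in 2 of 7 against 47.4%, and CCACACCC in 0 of 7 against 2.17%. These matches describe letters in the reference, not bound sites.

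The 4 arrays had nearly equal median intensities, 74.7 to 76.1 on the linear scale, and values below are log2 intensities. Hes1, which carries the reporter, went against the labels, with values of 8.78, 9.07 and 6.70 in negative replicates 1, 2 and 3 and 6.57 in the array labelled positive. Groups are therefore named by their labels only, and "higher" or "lower" refers to those labels. Over all 45037 probe sets the array labelled positive correlated with negative replicate 3 at 0.974 (Pearson, across probe sets, which are not replicates) and with replicates 1 and 2 at 0.959 and 0.957. By the mean over the 4 arrays, all 10 LSK gate markers with a probe set of their own were brighter than the median probe set. Kit, Cd34 and Flt3 were among them, and Ly6a, which encodes Sca1, had no such probe set. By the same mean, all 9 measured B lineage markers and 11 of 12 macrophage markers were also above that median, 6.23. This did not hold on each array. In the array labelled positive Pax5 (6.11), Ebf1 (5.90), Blnk (5.84), Timd4 (5.96) and Siglec1 (5.19) were below 6.23. Adgre1 was below it in negative replicate 3, at 5.63. Among the LSK gate markers, Slamf1 was below it in negative replicate 2, at 5.75.

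No globin or erythroid probe set was called different between the groups as labelled. At an adjusted p under 0.05 limma called 0 of the 16 and 0 of all 45037 probe sets (0%), with 1.00 as the adjusted p throughout the 16. At an unadjusted p under 0.05 limma gave 0 of the 16 and 4.51% of all probe sets. With 1 array labelled positive the spread comes from the negative arrays alone, and the smallest one-sided p of an exact permutation of 4 arrays is 0.25, so what follows gives the values of each array. The array labelled positive lay above all 3 negative arrays in 7 of the 16 probe sets, where 23.2% of all probe sets did so, below them in 1 (23.6% of all) and within their range in 8 (53.1% of all). Probe sets of 1 gene are not independent of each other. With 1 probe set per gene the same count was 3 of 10 above (23.6% of all genes) and 1 of 10 below (23% of all genes).

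What recurred among these genes was an order of arrays that crossed the labels. In 12 of the 16 probe sets negative replicates 1 and 2 were both lower than negative replicate 3 and the array labelled positive, an order found in 21.5% of all probe sets, and in 0 of the 16 were they both higher (17.8% of all). The gap between the lower and the upper of these arrays reached 1 log2 unit in 6 of the 16, the 3 probe sets of Hbb-y and the 3 of Hbb-bh1, and in 0.817% of all. With 1 probe set per gene the order was seen in 6 of 10 genes (Hbb-y, Hbb-bh1, Alas2, Slc4a1, Klf1 and Gata1) and in 23.7% of 18193 genes. Negative replicate 3 exceeded negative replicate 1 in 16 of 16 probe sets, against 56% of all, and negative replicate 2 in 15 of 16, against 51.6% of all. The array labelled positive exceeded negative replicate 1 in 14 of 16 (53.3% of all), replicate 2 in 13 of 16 (48.6% of all) and replicate 3 in 8 of 16 (46.9% of all). It was higher than the mean of the negative arrays in 13 of 16 (48.4% of all). Its median difference over the 16 was 0.65 log2 units against replicate 1, 0.68 against replicate 2 and 0.003 against replicate 3, while over all probe sets the medians were 0.03, -0.01 and -0.02.

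**Figure D1:**
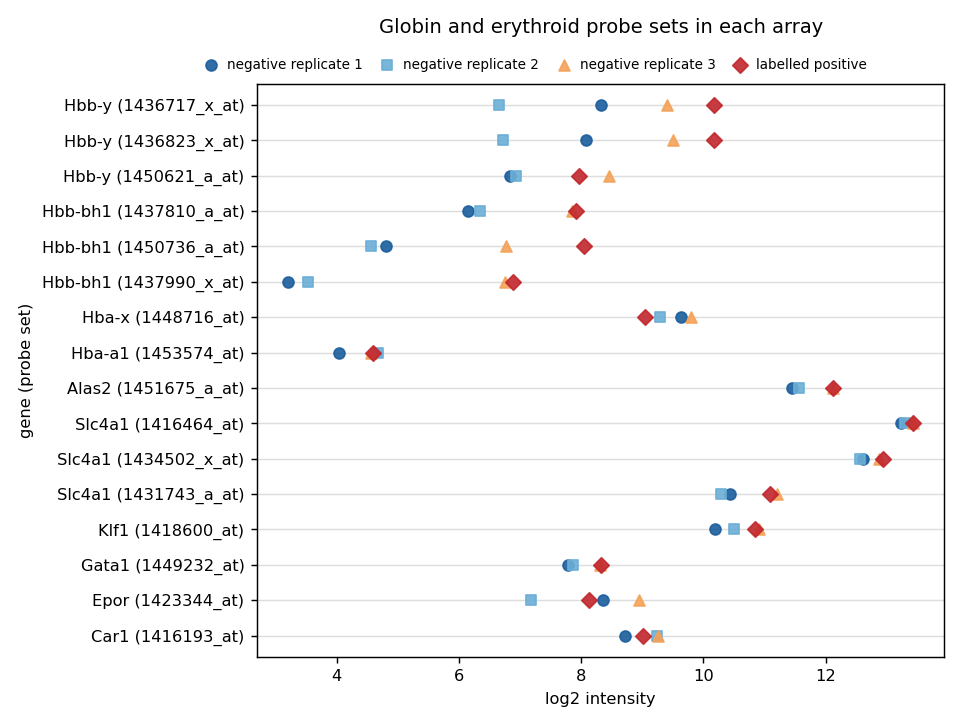
Log2 intensity (horizontal axis) of the 16 probe sets (rows, by gene) in the 3 arrays labelled HES1-GFP negative and the 1 labelled HES1-GFP positive, 1 point per array. In the 6 rows of Hbb-y and Hbb-bh1 negative replicates 1 and 2 sit at least 1.04 log2 units to the left of the other arrays, while the 4 points of the brightest Slc4a1 row lie within 0.20 log2 units.

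The widest spreads over the 4 arrays were in 4 of the 6 probe sets of the embryonic beta-like globins, and the other 2 (1450621_a_at and 1437810_a_at) spread no wider than Epor. The 3 negative arrays differed by at least 1 log2 unit in 7 of the 16 probe sets, against 22.6% of all, and these were the 6 of Hbb-y and Hbb-bh1 and that of Epor. Hbb-bh1, the beta H1 chain of primitive red cells, had in probe set 1450736_a_at log2 intensities of 4.81, 4.56 and 6.77 in negative replicates 1, 2 and 3 and 8.05 in the array labelled positive. This was the only one of the 16 probe sets in which the array labelled positive lay at least 1 log2 unit beyond the negative range (1.35% of all probe sets lay so far above it, and 0.631% so far below). Its difference from the negative mean of 5.38 ± 1.21 (SD, n = 3) was 2.67 log2 units with a standard error of 1.03 (limma adjusted p = 1.00). Probe set 1437990_x_at gave 3.21, 3.52 and 6.75 in the negative replicates and 6.88 in the array labelled positive, so that negative replicate 3 and the array labelled positive were 0.14 apart and replicates 1 and 2 more than 3 units below them. In linear intensity these were 9.22, 11.5 and 107 against 118. The values of replicates 1 and 2 are below 4.58, the 25th percentile of the mean log2 level of probe sets, so the size of that distance is uncertain. In 1450736_a_at replicates 1 and 2 were also dim, with replicate 2 below that percentile. Its difference of 2.67 was 2.22 with log2(value + 16), so its size is uncertain too. With the same setting the difference of 1437990_x_at went from 2.39 to 1.61. Probe set 1437810_a_at gave 6.14, 6.34 and 7.85 against 7.91. All 3 probe sets of Hbb-bh1 thus had negative replicates 1 and 2 lowest and the array labelled positive highest.

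Hbb-y, the epsilon-y chain and the other embryonic beta-like globin, also had negative replicates 1 and 2 lowest, with more spread between them in its _x_at probe sets. Probe set 1436717_x_at was at 8.32, 6.65 and 9.41 in negative replicates 1, 2 and 3 and at 10.17 in the array labelled positive, a difference of 2.05 log2 units from the negative mean of 8.13 ± 1.39 (SD, n = 3) with a standard error of 1.18 (limma adjusted p = 1.00). Probe set 1436823_x_at followed it closely, at 8.07, 6.72 and 9.50 against 10.17. In these probe sets negative replicate 2 was lowest and the array labelled positive highest. Probe set 1450621_a_at, at 6.83, 6.93 and 8.45 against 7.96, placed the array labelled positive 0.49 below negative replicate 3, so the 3 probe sets of Hbb-y disagreed on whether the array labelled positive or negative replicate 3 was highest. On the linear scale the intensities of 1436717_x_at were 320, 100.1, 680 and 1155 in the same order of arrays.

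The size of these differences rested on which negative arrays were counted. Without negative replicate 3 the difference of the array labelled positive was 2.69 log2 units for Hbb-y (1436717_x_at) and 3.37 for Hbb-bh1 (1450736_a_at), and without negative replicate 2 it was 1.31 and 2.26. The adjusted p of these values was 0.698 and 0.551 without replicate 3 and 1.00 without replicate 2 (limma), so no call was made in either case. For Hbb-bh1 the smallest of its 3 differences, 1.13 in 1437810_a_at, became 1.66 without negative replicate 3. In bulk RNA a larger share of cells with a transcript and more of it per cell cannot be told apart, and the level of embryonic globin here is a mean over all sorted cells.

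Hba-x, the embryonic zeta chain that pairs with the embryonic beta-like chains, did not share their order. Its probe set 1448716_at was at 9.64, 9.28 and 9.80 in negative replicates 1, 2 and 3 and at 9.04 in the array labelled positive, the lowest of the 4. The difference was -0.53 log2 units from a negative mean of 9.57 ± 0.26 (SD, n = 3), with a standard error of 0.29 (limma adjusted p = 1.00), and it is the only one of the 16 in which the array labelled positive lay below the negative range. Its 4 values spanned 0.76 log2 units. Hba-a1, an adult alpha chain, had only the dim probe set 1453574_at to itself, at 4.03, 4.67 and 4.55 in the negative replicates and 4.60 in the array labelled positive. The array labelled positive lay within the negative range there.

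Most adult globin signal on this array came from probe sets that several genes share and that were therefore not members. The 3 probe sets annotated to Hba-a1 and Hba-a2 together, and the 1 annotated to Hbb-b1, Hbb-b2, Hbb-bs and Hbb-bt, cannot be split between those genes. Probe set 1428361_x_at (Hba-a1 or Hba-a2) was at 14.58, 14.58 and 14.67 in negative replicates 1, 2 and 3 and 14.60 in the array labelled positive, and 14.67 is the highest log2 value on any of the arrays. Probe set 1417184_s_at (the 4 adult beta genes) was at 14.38, 14.34 and 14.45 against 14.52. Of the adult and shared probe sets only 1427866_x_at (Hbb-b2), which was below the median level, had negative arrays more than 0.14 log2 units apart, and there they were 0.49 apart. Adult globin signal was therefore at the bright end in all 4 arrays and differed little between them, while signal close to the array's ceiling can be compressed, which was not tested.

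**Figure D2:**
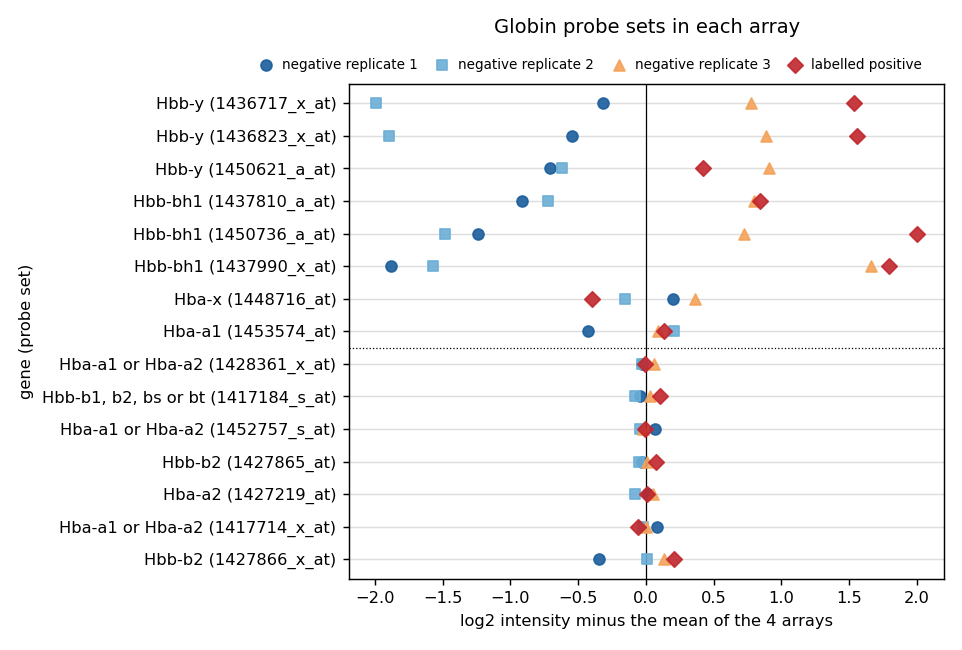
Log2 intensity of each globin probe set minus its own mean over the 4 arrays (horizontal axis), 1 point per array, with the 8 globin members above the dotted line and the adult-type and shared probe sets below it. The points of a row are up to 3.68 apart for Hbb-bh1, in a row whose lower points are dim, and up to 3.53 for Hbb-y, and in the 7 rows below the line they are 0.56 apart at most.

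Several of the globin probe sets could take up signal from a related gene. The suffix _x_at marks probe sets in which some probes also match other transcripts, _s_at those shared by transcripts of several genes, and _a_at those shared by transcripts of 1 gene. Of the 6 probe sets of Hbb-y and Hbb-bh1, 3 carry the suffix _x_at. With either suffix negative replicates 1 and 2 lay below the other arrays, but the spacing differed. In the _x_at probe set 1436717_x_at of Hbb-y replicates 1 and 2 were further apart than replicates 1 and 3. Its other _x_at probe set, 1436823_x_at, had replicates 1 and 2 at 8.07 and 6.72. In the _a_at probe set 1450621_a_at of Hbb-y replicates 1 and 2 lay close together. They also did so in the _x_at probe set 1437990_x_at of Hbb-bh1, at 3.21 and 3.52. Both of these values are dim, and dim values can lie close together for that reason alone. Whether the spacing goes with the suffix was not tested. The part of related transcripts in these values was not tested. In the beta cluster, Hbb-bh2, which lies next to Hbb-bh1, and the pseudogene Hbb-bh3 beyond it had no probe set of their own here.

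Among the factors that drive the programme, Klf1 and Gata1 followed the same order of arrays with smaller steps. Klf1, the CACCC-binding activator of adult beta globin and haem genes, was at 10.19, 10.51 and 10.92 in negative replicates 1, 2 and 3 and 10.84 in the array labelled positive. Gata1, the master factor of red cell and megakaryocyte genes, was at 7.78, 7.87 and 8.31 against 8.32. Their differences from the negative mean were 0.30 log2 units (standard error 0.36) for Klf1 and 0.34 (0.30) for Gata1, each with a limma adjusted p of 1.00. In both genes negative replicate 3 and the array labelled positive were less than 0.1 apart and replicates 1 and 2 lay below them, by 0.33 for Klf1 and 0.44 for Gata1 at the nearest.

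Epor, the erythropoietin receptor, had no such order. It was at 8.36, 7.17 and 8.95 in negative replicates 1, 2 and 3 and at 8.12 in the array labelled positive, which lay between replicates 1 and 2. The negative arrays alone spanned 1.77 log2 units, and the difference of -0.03 (standard error 0.78) turned to 0.07 without replicate 1 and to 0.36 without replicate 3. Car1, a carbonic anhydrase of red cells, was at 8.72, 9.24 and 9.26 against 9.01. All 4 of its values lay within 0.54 log2 units, and its difference of -0.06 (standard error 0.32) turned to 0.03 without replicate 2 or without replicate 3.

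Alas2 and Slc4a1 are products that a committed erythroid cell makes in quantity. Alas2, the erythroid enzyme that starts haem synthesis, was at 11.44, 11.56 and 12.13 in negative replicates 1, 2 and 3 and 12.11 in the array labelled positive. Its lower and upper arrays stood 0.56 apart, and the difference from the negative mean of 11.71 ± 0.37 (SD, n = 3) was 0.41 log2 units with a standard error of 0.36 (limma adjusted p = 1.00). Slc4a1, the band 3 anion exchanger of the red cell membrane, was at 13.24, 13.30 and 13.43 against 13.42 in its brightest probe set, 1416464_at. The same gene gave 12.61, 12.56 and 12.87 against 12.94 in 1434502_x_at and 10.44, 10.28 and 11.20 against 11.09 in 1431743_a_at. Negative replicates 1 and 2 were therefore lowest in all 3 probe sets, while the array labelled positive was highest only in 1434502_x_at. The step between lower and upper arrays grew from 0.12 in the brightest to 0.65 in the dimmest.

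Other genes of the pathway were described from lists of their own, with 126 of 145 listed genes measured by a probe set of 1 gene and the brightest probe set used for each. limma called 0 of the 126, and 5 had an unadjusted p under 0.05. Leaving out the 10 genes above, the order with negative replicates 1 and 2 lowest was seen in 54 of 116 genes and the opposite order in 16, against 23.7% and 17.4% of all genes. The array labelled positive lay above the negative range in 35 of the 116 and below it in 14, against 23.6% and 23% of all genes. The lists were chosen with earlier results of these data known, so these counts are a description.

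Haem synthesis and the red cell membrane followed the order of Alas2. Of 12 haem genes, 9 had negative replicates 1 and 2 lowest and 1 had them highest, and the median difference of the array labelled positive was 0.54 and 0.71 log2 units against replicates 1 and 2 and -0.04 against replicate 3. Abcb6, a porphyrin transporter, was at 8.44, 8.75 and 8.87 against 9.54, with an unadjusted p of 0.034 in limma and an adjusted p of 1.00. Cpox, coproporphyrinogen oxidase, was at 10.89, 10.56 and 11.04 against 11.27. Slc25a38, the mitochondrial glycine carrier of haem synthesis, was at 8.46, 7.97 and 7.80 against 7.55, highest in replicates 1 and 2. Neither order was seen in Urod, uroporphyrinogen decarboxylase, at 12.27, 11.95 and 12.64 against 12.17, or in Ppox, protoporphyrinogen oxidase, at 9.81, 9.18 and 9.44 against 9.58, which were named after their values were seen.

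Of 17 membrane and skeleton genes, 13 had negative replicates 1 and 2 lowest, and the array labelled positive lay above the negative range in 7 and below it in 0. Kel, the Kell blood group protein, was at 7.76, 7.47 and 9.14 in negative replicates 1, 2 and 3 and 9.87 in the array labelled positive, a difference of 1.74 log2 units (standard error 0.77, limma adjusted p = 1.00). Ank1, the erythroid ankyrin that ties band 3 to spectrin, was at 10.49, 10.26 and 10.74 against 11.28 in its brightest probe set, while the dimmest of its 4 probe sets, and the only one with a difference below 0, was at 6.48, 6.02 and 6.50 against 5.06. Tmod1, which caps actin filaments, was at 10.10, 10.25 and 10.33 against 10.58. Of 13 other red cell genes, 9 had that order and 0 the opposite one. The exception among the named ones was Xk, which sits with Kel in the membrane, at 7.66, 6.90 and 6.96 against 8.63, where all 3 negative arrays were low (unadjusted p = 0.024, limma adjusted p = 0.984). Its other probe set put the array labelled positive, at 7.91, within the negative range of 6.58 to 8.36.

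Of 17 erythroid transcription factors and cofactors, 11 had negative replicates 1 and 2 lowest and 0 had them highest. E2f2, a cell cycle factor of maturing erythroblasts, was at 10.67, 10.73 and 10.94 against 11.27. Mafg, a small Maf partner of Nfe2, was at 7.75, 8.11 and 8.66 against 8.92, although its other probe set put negative replicate 3 highest, at 9.35 against 7.88. Foxo3, at 11.97, 11.98 and 12.17 against 12.33, had the smallest difference of these, 0.29 log2 units. Of 12 genes of Epo and Kit signalling, 5 had that order, Stat5a and Cish among them. Kit itself was at 9.90, 9.72 and 9.68 against 10.13 and did not have it. Stat5a, which carries the Epor signal to the nucleus, was at 9.91, 9.95 and 10.56 against 10.71, and its other probe set, at 9.03, 6.71 and 9.60 against 9.01, did not have the order. Cish, a target of Stat5, was at 8.34, 7.81 and 8.45 against 8.55.

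Regulators of the switch between embryonic, foetal and adult globin had the opposite balance. Negative replicates 1 and 2 were highest in 6 of 13 (17.4% of all genes) and lowest in 2, Klf1 and Sox6 (23.7% of all genes). Of the 6, Lin28b was dim throughout, at 3.10, 3.03 and 2.85 against 2.92. Bcl11a, Hmga2, Igf2bp3 and Myb each had at least 1 other probe set in which replicates 1 and 2 were not both highest. Bcl11a, a repressor of embryonic beta-like globin genes, was at 12.31, 12.38 and 11.74 in negative replicates 1, 2 and 3 and 11.55 in the array labelled positive, and its difference was below 0 in all 7 of its probe sets. Sox6, which acts with Bcl11a in silencing Hbb-y, was at 6.27, 7.96 and 8.68 against 8.71, and 2 of its 4 probe sets had replicates 1 and 2 lowest. Nr2c1, an orphan receptor that binds and represses embryonic globin promoters, was at 8.40, 8.46 and 8.41 against 6.96. Its difference of -1.46 log2 units had an unadjusted p of 0.0019 and a limma adjusted p of 0.776, and its other 4 probe sets differed by -0.81 to 0.78. Igf2bp1, an RNA-binding protein of foetal cells, was at 8.10, 7.68 and 8.19 against 7.65, a difference of -0.35 log2 units, while its other 3 probe sets had differences above 0, of 0.04 to 1.42.

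Iron genes had no common order: 6 of 13 had negative replicates 1 and 2 lowest and 4 had them highest. Hmox1, which breaks down haem and is abundant in macrophages, was at 12.46, 12.42 and 8.99 in negative replicates 1, 2 and 3 and 9.52 in the array labelled positive. Slc40a1, the iron exporter of macrophages, was at 11.56, 11.32 and 9.31 against 9.58. Flvcr1, a haem exporter, was at 7.29, 7.19 and 7.74 against 7.86. Hmox1 and Slc40a1 were far lower in negative replicate 3 and the array labelled positive. Flvcr1 had the order of Alas2 in this probe set but not in its other one, at 6.74, 7.38 and 6.91 against 6.96. The globin list as a whole, 9 genes with the oxygen-binding proteins of other tissues, had negative replicates 1 and 2 lowest in 3 (Hbb-y, Hbb-bh1 and Hbb-b2) and highest in 2.

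Relatives of Car1 and neighbours of the globin clusters had no common order either. Of 16 carbonic anhydrases 2 had negative replicates 1 and 2 lowest and 1 had them highest. Car6, a secreted carbonic anhydrase, was at 3.71, 3.98 and 3.95 in negative replicates 1, 2 and 3 and 4.92 in the array labelled positive. Its difference was 1.04 log2 units, and its mean level was dim, below the 25th percentile of probe sets. Car3 was at 6.83, 7.08 and 6.71 against 7.32, and Car8 at 5.22, 4.98 and 5.67 against 4.71. Of 8 genes listed with the regions around the globin clusters, 3 had negative replicates 1 and 2 lowest. Nprl3, whose introns hold enhancers of the alpha globins, was at 7.28, 7.32 and 7.43 against 7.72. Il9r, also dim by its mean level, was at 4.69, 4.15 and 4.98 against 3.92. Mpg, a DNA glycosylase, was at 7.32, 7.51 and 7.19 against 7.61, while its other 2 probe sets had differences below 0.

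**Figure D3:**
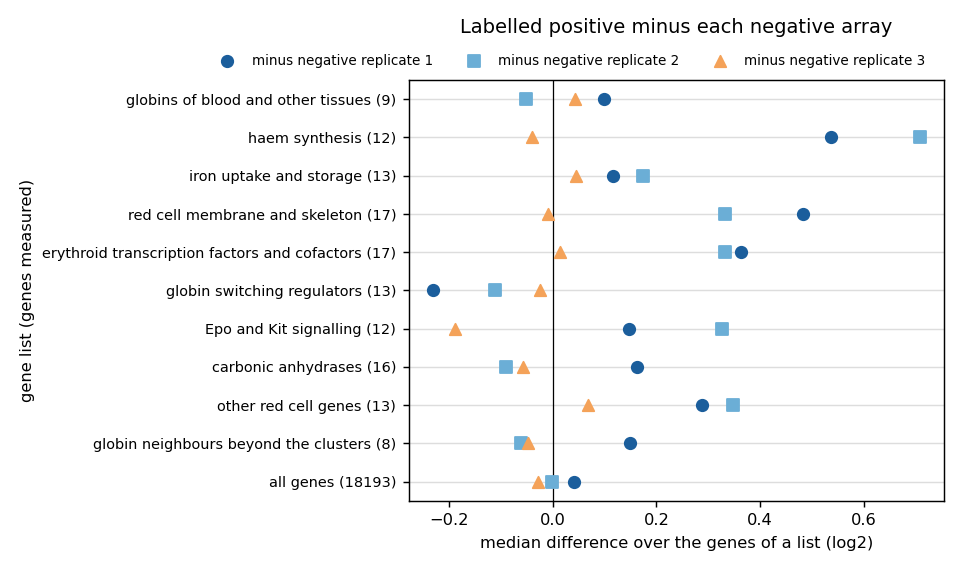
Median over the genes of each list (rows, genes measured in brackets) of the array labelled HES1-GFP positive minus each of the 3 negative arrays, in log2 units, with all 18193 genes in the last row. The haem synthesis list stands at 0.54 and 0.71 against negative replicates 1 and 2 and at -0.04 against replicate 3.

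Markers of other cell types were split along the same arrays. The summed intensity of 7 measured late erythroblast markers, led by Hemgn and Ermap and all in the pathway lists too, was 8006, 7384 and 9802 in negative replicates 1, 2 and 3 and 11315 in the array labelled positive. The sum of 12 macrophage markers, led by Csf1r and C1qb, was 29494, 28643 and 7679 against 6928, and 12 of 12 were highest in negative replicates 1 and 2. The late erythroblast and macrophage sums thus stood in opposite orders, and 5 of the 7 late erythroblast markers had negative replicates 1 and 2 lowest. The sum of 9 B lineage markers, led by Vpreb1 and Cd79b, was 26020, 24983 and 4314 against 4204, and that of 12 granulocyte and mast cell markers, led by S100a9 and S100a8, was 45259, 46600 and 75665 against 76506. In that list 9 of 12 had negative replicates 1 and 2 lowest, S100a8, S100a9, Elane and Mpo among them, but Cpa3, a mast cell protease, was at 11.78, 11.54 and 7.34 against 8.15, and Cpa3 and Fcer1a, a chain of the IgE receptor, were highest in replicates 1 and 2. Megakaryocyte markers, which share Gata1 with the red cell lineage and were led by Pf4 and Itgb3, summed to 2939, 3056 and 2175 against 2414. Their genes were mixed, with negative replicates 1 and 2 highest in 3 of 10 (Pf4, Gp6 and Vwf) and lowest in 2 (Itga2b and Gp9). The arrays with the lower erythroid values, negative replicates 1 and 2, were thus those with the higher macrophage and B lineage sums and the lower sum of the list led by S100a9. The part of these markers in the globin and erythroid values was not tested. Endothelial markers, led by Eng and Pecam1, summed to 5968, 4901 and 2965 against 2643, and hepatoblast markers, led by Hnf4a and Apoa1, to 2502, 1916 and 2676 against 2748. The LSK gate markers, led by Myb and Flt3, summed to 17517, 15035 and 15394 against 16301, with no such order. Only 1 megakaryocyte and 1 hepatoblast marker were below the 25th percentile of probe sets on every array.

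**Figure D4:**
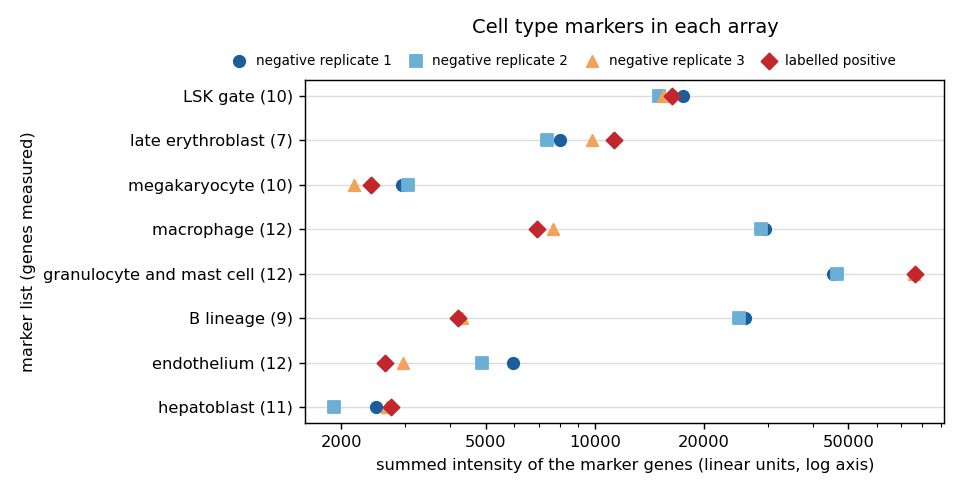
Summed linear intensity (logarithmic horizontal axis) of the marker genes of 8 cell types (rows, genes measured in brackets) in the 4 arrays, 1 point per array. Macrophage and B lineage sums are high in negative replicates 1 and 2, and late erythroblast and granulocyte and mast cell sums are high in negative replicate 3 and the array labelled positive.

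Genes with the most similar profile were looked up among 11007 other genes above the median level, by the Euclidean distance between log2 profiles centred on their own mean over the 4 arrays. Nearest to Hbb-y (1436717_x_at) were Fcnb at a distance of 0.34, Klf5 at 0.36 and Tlr3 at 0.39 log2 units. Fcnb was at 9.96, 8.59 and 11.35 in negative replicates 1, 2 and 3 and 11.74 in the array labelled positive. Nearest to Gata1 were Gm8096, Mtln and Med17, at 0.028 to 0.041, nearest to Hba-x were Pmel, Zfp35 and Exoc4, at 0.014 to 0.074, and nearest to Car1 were Gpld1, Pdzd3 and Rfwd3, at 0.052 to 0.073. None of these 12 is in the pathway lists. With 4 arrays many genes come close to any flat profile, and the likeness is a description.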

How the data were processed

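Total RNA was amplified from 5 ng and hybridized as biotin-labelled cDNA, per the labels' protocols. Per the submitters' processing notes the authors made the deposited intensities with RMA (background correction, quantile normalization and probe set summary). The values themselves show a linear scale. The version is not given in the sources used here, and array scans were not used. Because RMA equalizes the arrays, total RNA per cell is not visible in them. Amplification from little RNA adds noise whose size was not measured.

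From these intensities log2 values were taken with no pseudocount. Of 45101 probe sets 64 controls were left out, 932 carried several gene symbols and 9160 none, and 34741 of the 34945 with 1 symbol matched the reference gene table by gene ID. The array labelled positive was compared with the 3 labelled negative in limma 3.58.1 (R 4.3.3; lmFit and eBayes, two-sided, Benjamini-Hochberg over 45037 probe sets, threshold 0.05). The residual spread had 2 degrees of freedom, plus 1.80 prior ones. The single positive array was assumed to vary like the negative ones. The fit was tested on simulated data. For lists, the probe set of highest mean over the 4 arrays stood for a gene. The members and lists were chosen with earlier results of these data known. Named genes were the members, the 3 genes per pathway list with the largest absolute moderated t, and the 3 nearest profiles of 4 members. Hbb-b2, Sox6, Hmga2, Urod, Ppox, single marker genes and the other probe sets of named genes were added after their values were seen. Alternatives were cyclic loess, log2(value + 16), trend and robust settings of eBayes, a filter at the median level, 1 probe set per gene, averaged probe sets, and each negative replicate left out. Promoter windows were read from RefSeq's table, and motif shares used 1 start per gene.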

Additional observations from a re-analysis of the deposited data

How the results depend on the processing

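Over 9 alternatives limma called 0 of the members, 0 of the listed pathway genes and 0 of all probe sets or genes, with 724 to 3275 at an unadjusted p under 0.05. The lowest adjusted p of a member was 0.551, for Hbb-bh1 without negative replicate 3. Members with an unadjusted p under 0.05 in limma were found only without negative replicate 3, where the number over all probe sets was also highest. Of 129 recomputed differences 124 kept their sign. Those that turned did so with a negative replicate left out: Hba-a1 ranged from -0.016 (without replicate 1) to 0.30, Epor from -0.53 (without replicate 2) to 0.36 (without replicate 3), with 0.07 without replicate 1, and Car1 from -0.24 (without replicate 1) to 0.034 (without replicate 3), with 0.028 without replicate 2. The number of members higher in the array labelled positive, 13 of 16, was 7 of 10 with 1 probe set per gene and 7 of 10 with averaged probe sets, which count genes, and 13 to 15 with a negative replicate left out. The number above the negative range, 7 of 16, was 3 of 10 with 1 probe set per gene, 3 of 10 with averaged probe sets, and 7 to 12 with a negative replicate left out, with 12 without replicate 3, where the range is that of fewer arrays. The number below it was 1 to 2 with a replicate left out. Averaging its probe sets took Hbb-bh1 from 1.13 to 2.06. No paired analysis was possible because the labelled groups share only replicate number 1. Dim values, such as those of Hba-a1 (1453574_at) and, in replicates 1 and 2, of Hbb-bh1 (1437990_x_at and 1450736_a_at), may lie near the background. No detection calls were at hand.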
